A study of Mus musculus with 2 samples.

Results

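Pnliprp2-high cells are a set of epithelial cells from an untreated culture of mouse intestinal adenoma organoids, named for the lipase gene Pnliprp2. Epithelial control cells were barcodes with at least 9810 unique molecular identifiers (UMIs), at most 20% mitochondrial UMIs and at least 5 UMIs of the adhesion gene Epcam. The 15% of them with the highest summed UMIs of Pnliprp2, Pnliprp1, Ceacam10, Prss56 and Gulo per total UMIs were taken as Pnliprp2-high. This gave 280 of 1865 epithelial control cells, in a library of 2251 called cells and a series of 4996. The other 1585 epithelial control cells are the comparison group. Both groups come from 1 library, and cells are not replicates, so the comparison has no replicate and no test was made. The cells were split by measured values, so the levels of the 5 choosing genes are a description.

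The organoids came from intestinal adenomas of C57BL/6 mice heterozygous for the Min allele of Apc (ApcMin/+), taken at 17 weeks. Every cell described here shares that genotype. The control culture received no R-spondin, and a second culture received RSPO1-Fc, a fusion of R-spondin 1 to an antibody Fc part, at 10 ug/ml by the treatment protocol (another label gives the same figure in mg/ml). Single cells were measured by droplet 3′ sequencing, 1 library a condition. How many animals or separate cultures contributed to a library is not given in the sources used here.

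Pancreatic lipase-related proteins 1 and 2 belong to the family of pancreatic lipase, which splits dietary fats in the gut lumen. Protein 2 acts on galactolipids and phospholipids as well as triglycerides, and protein 1 has little known lipase activity. Apc normally holds down Wnt signalling by promoting the destruction of β-catenin, and its loss in adenomas leaves Wnt target genes switched on, among them the stem cell receptor gene Lgr5 and the feedback inhibitors Axin2 and Notum.

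The control library held 91675581 UMIs. Pnliprp2-high cells had a median of 22960 UMIs and other epithelial cells one of 28933. Thinned to the common depth of 9810 UMIs a cell, their median numbers of detected genes were 3270.5 and 3233, and mitochondrial UMIs made up a median of 5.89% and 6.24%. Among the Pnliprp2-high cells 7 (2.5%) carried one of the highest doublet scores, against 29 (1.83%) of the others. No cell barcode was shared between the 2 libraries. Their matrices list different numbers of barcodes, so this cannot show whether RNA mixed between them. Background from free RNA was judged in 172 control barcodes with at most 1 Epcam UMI and at least 20 UMIs of macrophage genes, which had a median of 15097 UMIs. Levels are given as CPM, the counts of a gene per 1e6 summed UMIs of the group, and all intervals are 95% intervals that cover counting error only, not the variation between cells, cultures or mice. Shares of cells with a UMI were taken at the common depth.

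The positions of the choosing genes are those of the mouse genome build GRCm38 with the GENCODE M21 annotation. Pnliprp1 (chr19:58728887-58744169, plus strand) and Pnliprp2 (chr19:58759719-58777534, plus strand) are neighbours, with 15549 bases between them. Ceacam10, a carcinoembryonic antigen-related adhesion gene, lies at chr7:24777206-24784657 on the plus strand. Prss56, a trypsin-like serine protease gene, lies at chr1:87183313-87188405 on the plus strand. Gulo, the gene of the last enzyme of vitamin C synthesis in mice, lies at chr14:65986786-66009207 on the minus strand.

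The starts of the lipase genes and of Prss56, which are among the 5 choosing genes, are shown. That these genes were high in the chosen cells follows from the choice. Each is a 300-base window of 250 bases before and 50 after the start, from RefSeq (GRCm38.p6), read 5′ to 3′. Capitals mark CTTTGAA or CTTTGAT on either strand, 2 forms of the core letters of a TCF/LEF site.
Pnliprp2, chr19:58759473-58759772, plus strand: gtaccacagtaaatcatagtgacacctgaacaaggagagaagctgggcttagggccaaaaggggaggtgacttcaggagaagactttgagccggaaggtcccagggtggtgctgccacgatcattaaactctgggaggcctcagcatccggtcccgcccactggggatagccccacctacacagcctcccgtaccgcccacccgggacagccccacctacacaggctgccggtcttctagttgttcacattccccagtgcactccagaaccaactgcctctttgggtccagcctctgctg
Pnliprp1, chr19:58728637-58728936, plus strand: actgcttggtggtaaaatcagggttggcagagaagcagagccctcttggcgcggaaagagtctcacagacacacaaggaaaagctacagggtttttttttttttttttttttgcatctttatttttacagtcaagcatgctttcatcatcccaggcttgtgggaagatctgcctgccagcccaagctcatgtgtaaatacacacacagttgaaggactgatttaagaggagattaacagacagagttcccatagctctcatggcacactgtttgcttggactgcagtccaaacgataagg
Prss56, chr1:87183064-87183363, plus strand: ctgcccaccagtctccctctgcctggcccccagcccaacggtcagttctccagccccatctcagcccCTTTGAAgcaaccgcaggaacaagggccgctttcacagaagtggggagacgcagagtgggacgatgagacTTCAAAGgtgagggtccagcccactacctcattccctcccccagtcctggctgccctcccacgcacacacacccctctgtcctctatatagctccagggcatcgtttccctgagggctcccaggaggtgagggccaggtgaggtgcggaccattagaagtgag
The window of Prss56 held CTTTGAA once on each strand, beginning 183 and 113 bases before the start, and the windows of Pnliprp2 and Pnliprp1 held neither form. Ceacam10, not shown, held neither form in any of its windows, and Gulo had no window. Of 20 genes looked up (the 5 choosing genes and the 15 highest genes below), 15 had a window and 3 of those held a match, namely Prss56, Lect2 and Atp4a. At least 1 of the forms was in 8.65% of all 32851 windows of this length (5.14% with CTTTGAA and 3.73% with CTTTGAT). A match describes these letters and is not evidence of binding.

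Pnliprp2 stood at 3376 CPM in Pnliprp2-high cells, against 82.1 CPM in other epithelial cells. Its levels per cell had a lowest, median and highest value of 0, 2110 and 21164 CPM in Pnliprp2-high cells, and of 0, 0 and 1987 CPM in the others. Pnliprp1 averaged 2651 CPM in the chosen cells and 133 CPM in the others, Ceacam10 942 and 68.8 CPM, Prss56 257 and 11.9 CPM, and Gulo 281 and 31.9 CPM. These are the values that chose the cells. The summed level of the 5 genes had a median of 5675 CPM in Pnliprp2-high cells and 83.1 CPM in others, and the limit between them fell in a continuous range. The 3 cells just inside it stood at 2543, 2558 and 2604 CPM, and the 3 just outside at 2529, 2523 and 2518 CPM. The others included 411 cells with no UMI of any of the 5 genes.

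**Figure D1:**
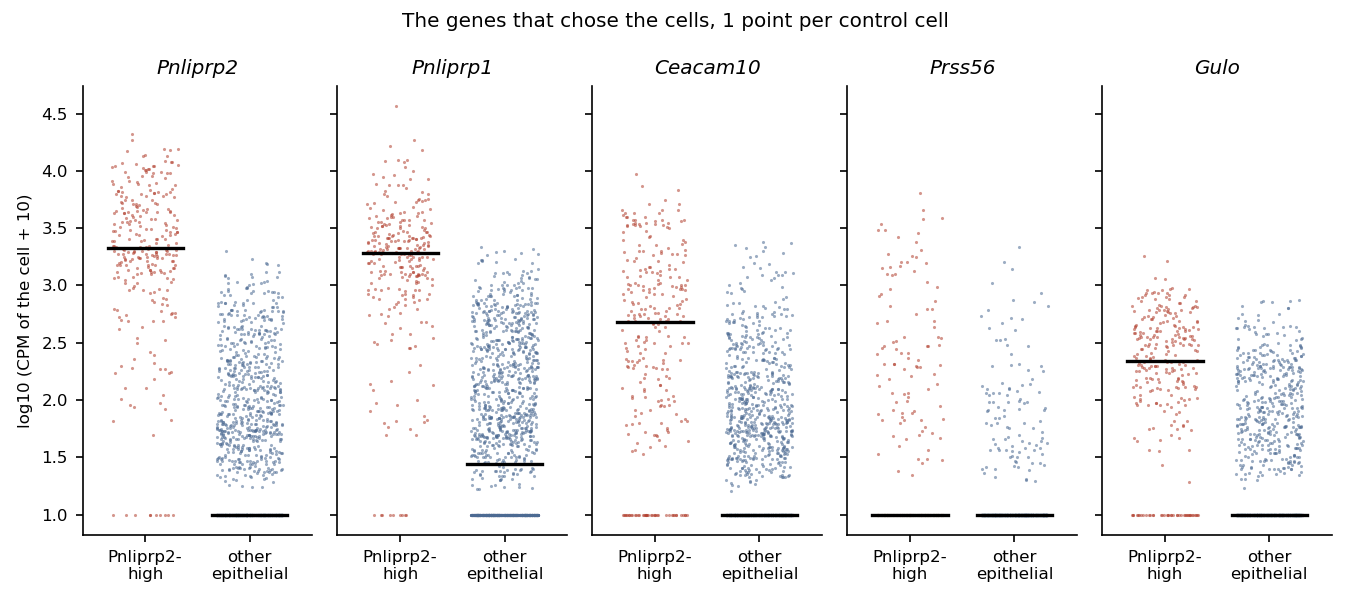
Level of each choosing gene in single control cells, as log10 of CPM plus 10, in Pnliprp2-high cells (left of each panel, 280 points) and other epithelial cells (right, 1585 points), with bars at the median. The medians of the lipase genes, Ceacam10 and Gulo lie higher in Pnliprp2-high cells, whereas the median Prss56 level is 0 in both groups.

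The chosen cells did not all carry the same genes. At the common depth, 46 of the 280 held UMIs of all 5 genes, 135 of 4, 81 of 3, 13 of 2 and 5 of 1. Prss56 was seen in 29.3% of Pnliprp2-high cells and 4.1% of other epithelial cells, and in 0.581% of the macrophage background cells. Pnliprp2 was seen in 94.3%, 26.4% and 4.07% of the same groups, Pnliprp1 in 95.0%, 37.4% and 4.65%, Ceacam10 in 77.9%, 25.6% and 2.91%, and Gulo in 76.4%, 18.2% and 0%. A count of 0 in the 172 background cells was read as up to 3 cells, a share of 1.74%. Each gene was also read with itself left out of the choice. The cells then chosen shared 247 to 273 of the 280, and the left-out gene was 26.9-fold higher in them for Pnliprp2 (26.1 to 27.6), 14.0-fold for Pnliprp1, 10.3-fold for Prss56, 7.99-fold for Gulo and 5.97-fold for Ceacam10. When the UMIs of each cell were divided at random, the cells chosen on one portion and the genes read on the remainder, 271 were the same and Pnliprp2 was 38.6-fold higher (37.0 to 40.3).

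Of 6882 genes at 20 CPM or more in either group, 347 (5.04%) were at least 2-fold higher in Pnliprp2-high cells and 341 (4.95%) at least 2-fold lower. The median log2 ratio, with a pseudocount of 1 CPM, was -0.01, with 3360 genes higher and 3522 lower. The groups differed in cell division (given with the cell cycle genes), so both were also limited to low-cycle cells, the 933 epithelial cells at or below the median share of cell cycle UMIs. In this alternative, added after the data were seen, 209 of 6757 genes were higher and 254 lower. Of the genes first called, 201 (57.9%) of the higher and 174 (51.0%) of the lower were then called again.

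The genes furthest above the other epithelial cells were diverse in function. Cldn5, a tight junction claudin best known from blood vessel linings, stood at 126 CPM in Pnliprp2-high cells and 5.52 CPM in the others (22.8-fold, 20.1 to 25.9). Ms4a2 and Tpsb2, which encode the IgE receptor β chain and a tryptase of mast cells, stood at 78.9 against 3.33 CPM and 37.2 against 1.23 CPM. Snhg11, a noncoding RNA, reached 256 against 27.0 CPM. Lect2, a secreted protein of liver, reached 624 against 70.6 CPM (8.84-fold, 8.49 to 9.21). Mt4, a metallothionein otherwise known from stratified squamous epithelia, was the most abundant of them at 5678 against 757 CPM (7.50-fold, 7.41 to 7.60). Atp4a, a subunit of the acid pump of the stomach, stood at 61.9 against 7.87 CPM. Peg3, Cbln2, Dusp15, Sdk2, Cib3, Best1, Wisp2 and Sox2 completed the 15 highest, with folds of 7.84 to 18.8.

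Cldn5, Ms4a2 and Tpsb2 are marker genes of vessel and mast cells, so the rest of those lists was read beside them. At the common depth, at least 3 UMIs of the endothelial list without Cldn5 were found in 3 Pnliprp2-high cells (1.07%) and 15 others (0.946%). For the mast cell list without Ms4a2 and Tpsb2, a list added after the data were seen, the counts were 2 (0.714%) and 29 (1.83%). Cpa3, Fcer1a and Mcpt4 had 0 UMIs in Pnliprp2-high cells. Without thinning, 139 of the 280 Pnliprp2-high cells and 743 of all 1865 epithelial cells held 3 or more UMIs of other cell types' markers, and 67 and 644 with Cldn5 not counted. The log2 ratio of Cldn5 was 4.28, and 2.28 with the 15% chosen anew without such cells, Cldn5 counted among the markers. Counting Cldn5 takes out the cells high in Cldn5, so a fall follows from that limit and says nothing on vessel cells. Macrophage genes reached 3 UMIs in 10 Pnliprp2-high cells (3.57%) and 58 others (3.66%). Summed over their lists, macrophage genes stood at 96.2 CPM in Pnliprp2-high cells and 77.9 CPM in others, fibroblast genes at 43.3 and 60.4 CPM, and smooth muscle or pericyte genes at 12.2 and 57.0 CPM. The part of such cells in the results was not tested. Cldn5 itself was seen in 34.6% of Pnliprp2-high cells, 2.97% of others and 0% of the macrophage background cells.

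At the low end stood genes of epithelial surfaces, secretory cells and division. Lgals4, an intestinal galectin, had 9.36 CPM in Pnliprp2-high cells and 572 CPM in the others (61.1-fold lower, 49.0 to 77.1, log2 ratio -5.79, and -9.04 with free RNA subtracted), and the adhesion gene Ceacam1 had 1.54 and 89.8 CPM. The subtracted share was above what the scarcest gene allowed (given with the processing), so -9.04 may overstate the difference. Lgals4 was seen in 6.43% of Pnliprp2-high cells and 42.2% of others, against 5.81% of the macrophage background cells. Phgr1, a small protein of gut epithelium, was 62.2-fold lower and Sprr2a3, a cornified envelope gene, 41.6-fold. Ube2c, Hist1h1b and Mki67, genes of dividing cells, were also among the 10 lowest. The goblet cell genes Spink4 and Tff3 and the Paneth cell defensin Defa24 stood at 7.35, 0.83 and 5.69 CPM in Pnliprp2-high cells against 293, 49.8 and 172 CPM in the others, but 5 of the 1585 other cells held 65.2%, 76.2% and 98.0% of their UMIs there. At the common depth Spink4 was seen in 8.57% of Pnliprp2-high cells, 6.56% of others and 6.98% of the macrophage background cells. Tff3 was seen in 0.357% of Pnliprp2-high cells and 2.08% of others, and Defa24 in 1.07% and 2.21%. Defa24, Sprr2a3 and Hist1h1b have near-identical copies, so their own counts are uncertain.

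The levels of some genes were graded along the summed level of the 5 choosing genes. Bands ran from the 411 cells with no UMI, through 2 bands of 587 other cells, to 3 bands of 94, 93 and 93 Pnliprp2-high cells. Along them Mt4 stood at 190, 291, 1732, 4394, 5479 and 7382 CPM. Lect2 followed the same order with 12.3, 29.7, 162, 402, 579 and 933 CPM. In the opposite direction, Lgals4 stood at 1120, 673, 75.1, 8.75, 5.54 and 14.7 CPM. The upper band of other cells lay between the remaining other cells and the chosen ones for all 3 genes. Not every gene was graded. Clu stood at 417, 540, 578, 361, 506 and 171 CPM along the bands, and Sox11 at 35.2, 33.4, 104, 74.5, 76.6 and 37.4 CPM. A class cut from such a score is a range of cells, not a cell type.

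**Figure D2:**
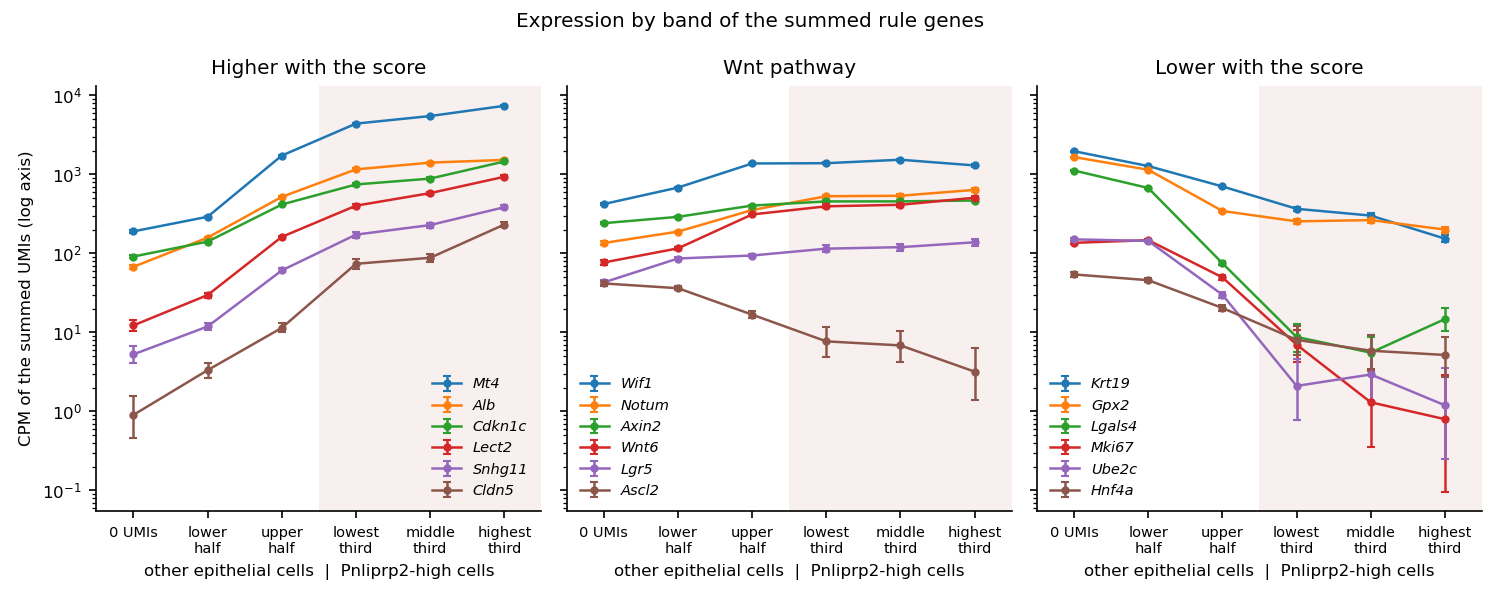
CPM of summed UMIs (log axis, 95% exact Poisson intervals) in 6 bands of the summed choosing genes, from other epithelial cells with 0 UMIs to the highest band of Pnliprp2-high cells (shaded). Mt4 runs from 190 to 7382 CPM and Lgals4 from 1120 to 14.7 CPM, while Axin2 stays between 241 and 467 CPM.

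Correlation with Pnliprp2 was ranked for named genes among the 8139 seen in at least 10% of Pnliprp2-high cells, mitochondrial and ribosomal genes left out. Over the 1865 epithelial control cells, log UMIs at the common depth gave the highest correlation with Pnliprp2 for Pnliprp1 (r = 0.79), Mt4 (0.65), Lect2 (0.63), Gulo (0.59), Mt3 (0.56), Spock2 (0.53), Pglyrp1 (0.51), Glul (0.50), Pycr1 (0.50) and Vim (0.49). Pnliprp1 and Gulo are choosing genes themselves. Within the Pnliprp2-high cells alone, r ran from 0.22 (Vim) to 0.48 (Pnliprp1), and within the others from 0.22 (Glul) to 0.58 (Pnliprp1). The points are cells of 1 library, and the list is a description. Of the genes ranked, Krt19, an epithelial keratin, had the lowest correlation (-0.47). Genes seen in a smaller share of Pnliprp2-high cells, such as Lgals4 at 6.43%, were not ranked. Vim, the intermediate filament gene of mesenchymal cells, stood at 3096 CPM in Pnliprp2-high cells and 777 CPM in others. Spock2, a proteoglycan gene, stood at 2320 and 634 CPM, and Pglyrp1, which encodes a peptidoglycan recognition protein, at 4110 and 1383 CPM.

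Wnt target genes differed in both directions. Among 21 measured Wnt targets, 13 were higher and 8 lower in Pnliprp2-high cells, 3 of them at least 2-fold higher (Notum, Sp5 and Apcdd1) and 4 at least 2-fold lower (Ascl2, Cd44, Ccnd1 and Zfp703), with a median log2 ratio of 0.53. The shares over all 6882 genes were 5.04% at least 2-fold higher and 4.95% at least 2-fold lower. Notum, a secreted enzyme that inactivates Wnt ligands, stood at 564 CPM in Pnliprp2-high cells and 232 CPM in others (2.43-fold, 2.35 to 2.51). Axin2 had 459 and 317 CPM, Wif1, a secreted Wnt inhibitor, 1413 and 857 CPM, and the transcription factor gene Prox1 957 and 482 CPM. In low-cycle cells, 2 of 20 measured targets were at least 2-fold higher and 3 lower, and Apcdd1 had a log2 ratio of 0.33. With the 15% chosen anew among low-cycle cells, 0 targets were 2-fold higher, and Notum had a log2 ratio of 0.93.

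Of 18 genes of Wnt and R-spondin ligands, 2 were measured. Wnt6 stood at 434 CPM in Pnliprp2-high cells and 173 CPM in others (2.51-fold), and Wnt10a at 255 and 100.3 CPM (2.54-fold). In low-cycle cells their log2 ratios were 0.62 and 0.59, below 2-fold. No other ligand of the list reached 20 CPM, and Rspo1 had 1 UMI in Pnliprp2-high cells and 0 in others. The receptor gene Fzd10 stood at 51.9 and 14.3 CPM (log2 ratio 1.79, 1.06 in low-cycle cells and 0.66 with the choice made anew among them). Lgr4, an R-spondin receptor gene, stood at 21 and 47.0 CPM (log2 ratio -1.13, and -0.75 in low-cycle cells). Among the antagonists Dkk3 had 243 and 61.2 CPM and Dkk2 73.2 and 177 CPM.

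Stem cell markers differed in both directions. Of 11 measured, 5 were higher and 6 lower, with 1 at least 2-fold higher (Msi1, 26.9 against 13.4 CPM) and 4 at least 2-fold lower (Gkn3, Slc12a2, Cdca7 and Ascl2). For all measured genes the shares were 5.04% at least 2-fold higher and 4.95% lower. Msi1 stood at 2.01-fold and fell short of 2-fold under TMM scaling and as a mean of CPM per cell. In low-cycle cells 8 of the list were measured, with 1 at least 2-fold higher, 1 lower and a median log2 ratio of 0.07, against -0.46 over all cells. Lgr5, the receptor gene of intestinal stem cells, stood at 124 CPM in Pnliprp2-high cells and 79.0 CPM in others (1.57-fold, 1.46 to 1.67), and Smoc2 at 283 and 164 CPM. Ascl2, the stem cell transcription factor gene, stood at 6.04 and 30.9 CPM (5.11-fold lower, 3.87 to 6.89, log2 ratio -2.18, and -1.43 in low-cycle cells). For Olfm4, also a stem cell gene, Pnliprp2-high cells held 0 UMIs and the others 5. Of the 675 epithelial cells with an Lgr5 UMI at the common depth, 145 were Pnliprp2-high, which is 51.8% of the Pnliprp2-high cells and 21.5% of the Lgr5 cells.

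**Figure D3:**
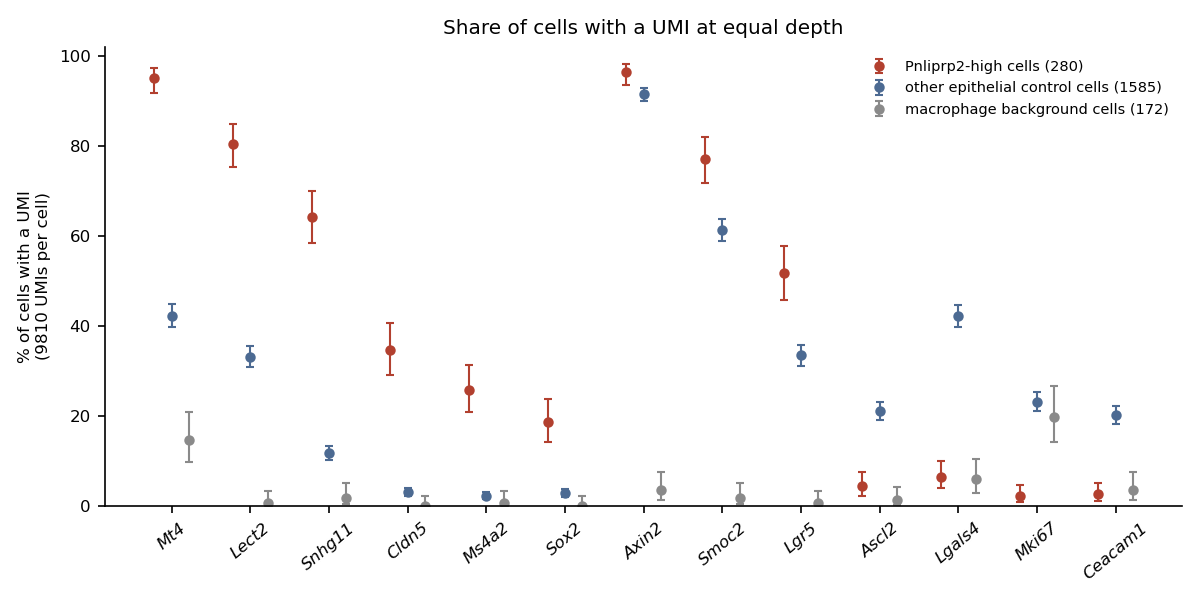
Share of cells with a UMI at 9810 UMIs a cell (95% Clopper-Pearson intervals) in Pnliprp2-high cells, other epithelial control cells and macrophage background cells. Lgr5 was seen in 51.8%, 33.4% and 0.581% of these groups, and Ascl2 in 4.29%, 21% and 1.16%.

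Genes of dividing cells were lower in Pnliprp2-high cells. All 23 measured G2 and M phase genes and 16 of 19 S phase genes were at least 2-fold lower in Pnliprp2-high cells, with median log2 ratios of -4.01 and -2.27. The share at least 2-fold lower over all genes was 4.95%. Mki67, a marker of cycling cells, had 3.08 CPM in Pnliprp2-high cells and 112 CPM in others (36.2-fold lower, 24.7 to 55.4), and was seen in 2.14% and 23.0% of cells. The macrophage background cells showed 19.8%, so for this gene they are not a background. Of the Pnliprp2-high cells, 228 (81.4%) were low-cycle cells. Among low-cycle cells only 2 G2 and M phase genes were measured, and neither differed 2-fold. Low-cycle cells were defined by the UMIs of the S phase and G2 and M phase genes, so this follows from the limit. Among inhibitors of the cycle, the imprinted gene Cdkn1c stood at 1008 and 223 CPM (4.52-fold), while Cdkn1a, a target of p53, stood at 146 and 326 CPM.

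Markers of goblet cells and of fetal or regenerating epithelium were lower in the Pnliprp2-high cells, while other lineage lists were mixed or barely measured. All 6 measured goblet markers were at least 2-fold lower (median log2 ratio -3.56), with Muc2, the main mucin of goblet cells, at 0.593 against 28.9 CPM, although 5 other cells held 69.7% of the Muc2 UMIs there. Of 9 Paneth markers 4 were at least 2-fold lower and 1 higher (Habp2), and under TMM scaling, as a mean of CPM per cell or in low-cycle cells 0 were higher. Of 3 measured enterocyte markers 1 was at least 2-fold higher and 2 lower, and in low-cycle cells 1 of 2 was higher and 0 lower. None of 2 enteroendocrine markers and 1 tuft marker differed 2-fold. For comparison, 5.04% of all measured genes were at least 2-fold higher and 4.95% at least 2-fold lower. Of 9 genes of fetal or regenerating epithelium 5 were lower and 0 higher, among them Ly6a at 21.8 against 161 CPM and Anxa1 at 73.6 against 183 CPM, while Clu stood at 357 against 525 CPM. Of 7 measured epithelial markers 6 were lower (2 at least 2-fold), as were 7 of 8 measured keratins and cornified envelope genes (3 at least 2-fold). Krt19 stood at 279 against 1238 CPM (4.43-fold lower, 4.25 to 4.62). Krt18, another keratin of simple epithelia and the only higher gene of both lists, stood at 1613 against 1563 CPM. Of the epithelial markers, Epcam, which selected the cells, had 1465 against 2212 CPM.

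Of 12 measured transcription factor genes of gut segments, 2 were at least 2-fold higher and 3 lower, beside 5.04% and 4.95% of all genes. Cdx2, a master regulator of intestinal identity, was below 20 CPM in both groups and had 0 UMIs in Pnliprp2-high cells and 352 in 147 others. Set against 3 UMIs over the group, the floor used for a count of 0, it was at least 17.0-fold lower. Hnf4a, an enterocyte regulator, stood at 6.4 against 39.1 CPM, Cdx1 at 7.11 against 28.5 CPM and Klf5 at 165 against 393 CPM. The log2 ratio of Cdx1 was -1.86, and -1.15 in low-cycle cells. Foxa2, a factor of endoderm and secretory cells, stood at 122 against 39.2 CPM (log2 ratio 1.61), and Sox2, a factor of stomach and foregut, at 42 against 5.35 CPM. Sox2 was concentrated in 27 cells led by Ceacam10, described with the variation among the cells, and its log2 ratio was 2.76, and 0.98 without Ceacam10 in the score. Sox6 and Sox18 were 3.23-fold and 4.10-fold higher. Of 7 measured posterior Hox genes 2 were higher and 5 lower, with 1 at least 2-fold lower and a median log2 ratio of -0.21. Among them Hoxa13 and Hoxb13 stood at 60.1 against 39.1 CPM and 100 against 105 CPM.

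Few other genes in the families and pathways of the choosing genes were measured. Of the 17 lipase genes only Pnliprp1, Pnliprp2 and Pnpla2, a lipid droplet lipase gene, were measured, and Pnpla2 stood at 76.2 against 78.6 CPM. Pnlip, pancreatic lipase itself, was higher but scarce, at 2.96 against 0.377 CPM (25 and 22 UMIs, 7.85-fold, 4.25 to 14.6). Of 19 acinar pancreas genes, 11 had 0 UMIs in Pnliprp2-high cells and 9 in the others. None of the 4 measured genes of vitamin C synthesis and transport besides Gulo differed 2-fold. Ceacam2 stood at 20.7 against 6.47 CPM. Hpn, a membrane trypsin-like protease gene, stood at 26.4 against 8.85 CPM and Prss32 at 9.24 against 109 CPM.

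Several lists were drawn up after the data were seen and are descriptions. Their counts stand beside shares over all genes of 5.04% at least 2-fold higher and 4.95% lower. All 4 metallothioneins, small proteins that bind zinc and copper, were at least 2-fold higher: Mt4 as above, Mt3 with 4905 against 1099 CPM, Mt1 with 901 against 449 CPM and Mt2 with 509 against 191 CPM. Mt1 was below 2-fold in low-cycle cells (log2 ratio 0.87). Of 9 measured genes of proteins secreted by the liver, 6 were at least 2-fold higher, with Alb, serum albumin, at 1359 against 260 CPM (5.22-fold, 5.09 to 5.35). Ttr, a thyroid hormone carrier, went the other way at 38.3 against 69.3 CPM. Of 7 measured genes under Wnt control around the central vein of the liver, besides Gulo, 4 were at least 2-fold higher, among them Glul, glutamine synthetase, at 932 against 206 CPM and Lhpp at 151 against 37.4 CPM. Oat, also counted, overlaps Fgfr2 on its strand, so its count is uncertain. Of 11 imprinted genes 4 were at least 2-fold higher (Peg3, Cdkn1c, Grb10 and Plagl1) and 0 lower. Plagl1 was below 2-fold in low-cycle cells (log2 ratio 0.86).

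**Figure D4:**
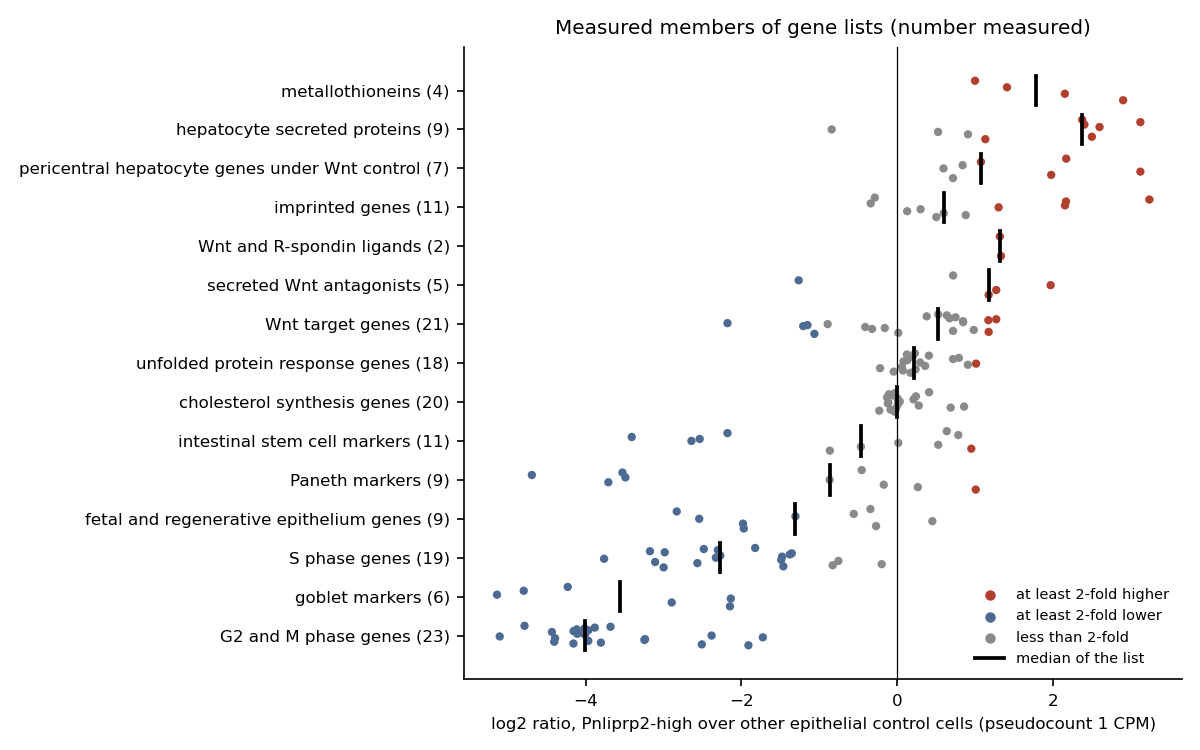
log2 ratio of Pnliprp2-high over other epithelial control cells for each measured gene of 15 lists, with the number measured, and a bar at the list's median. Medians run from 2.38 for secreted liver proteins to -4.01 for G2 and M phase genes, while cholesterol synthesis genes lie around 0.

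Cholesterol synthesis and unfolded protein response genes differed little as groups, whereas aldehyde, glutathione and oxidative stress enzymes were mostly lower. None of 20 cholesterol synthesis genes was 2-fold different in either direction. Among all measured genes 5.04% were at least 2-fold higher and 4.95% lower. Of 12 measured aldehyde, glutathione and oxidative stress enzyme genes, 10 were lower and 2 higher, with 3 at least 2-fold lower and 1 at least 2-fold higher. Among them Gpx2, an intestinal glutathione peroxidase, stood at 242 against 989 CPM and Aldh2 at 482 against 206 CPM. Of 18 genes of the unfolded protein response 16 were higher, but only Xbp1 by 2-fold (217 against 107 CPM), and not in low-cycle cells (log2 ratio 0.82).

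The Pnliprp2-high cells were not uniform. In 27 of them (9.64%), Ceacam10 made up more than 50% of the UMIs of the 5 genes, and 9 of all 280 lay between 40% and 60%. This split was made after the data were seen and has no test. At the common depth, Sox2 was seen in 20 of the 27 (74.1%, 53.7 to 88.9), in 12.6% of the other 253 Pnliprp2-high cells (8.81 to 17.4) and in 2.71% of other epithelial cells (1.97 to 3.64). Sox2 stood at 277 CPM in the 27 cells and 23.0 CPM in the other 253, and Cib3, a calcium-binding protein gene, at 196 and 6.91 CPM. The stem cell gene Smoc2 stood at 915 and 233 CPM.

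The same 27 cells were lower in other genes of the group. Mt4 was seen in 77.8% of them and 96.8% of the other 253. It stood at 1369.7 CPM in them and 6024 CPM in the other 253, and Lect2 at 120 and 665 CPM, and Alb at 242 and 1448 CPM, and 5 of the 27 cells held 63.4% of their Mt4 UMIs, 94.7% of Lect2 and 99.3% of Alb. Lgr5 was seen in 29.6% of the 27 (13.8 to 50.2) and 54.2% of the other 253 (47.8 to 60.4). Cdkn1c differed little, at 845 and 1021 CPM. The split favours cells low in Pnliprp2, and within the Pnliprp2-high cells Mt4 and Lect2 were correlated with Pnliprp2 (r = 0.46 and 0.38). How far the split itself lowers Mt4 and Lect2 was not tested. Without Ceacam10 in the score, the log2 ratio of Cib3 in Pnliprp2-high over other epithelial cells was 0.84, and 2.95 with it. Between the 145 Pnliprp2-high cells with an Lgr5 UMI and the 135 without, Notum stood at 563 and 565 CPM. Sox2 stood at 22.3 CPM in Pnliprp2-high cells with an Lgr5 UMI and 65.3 CPM in those without.

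**Figure D5:**
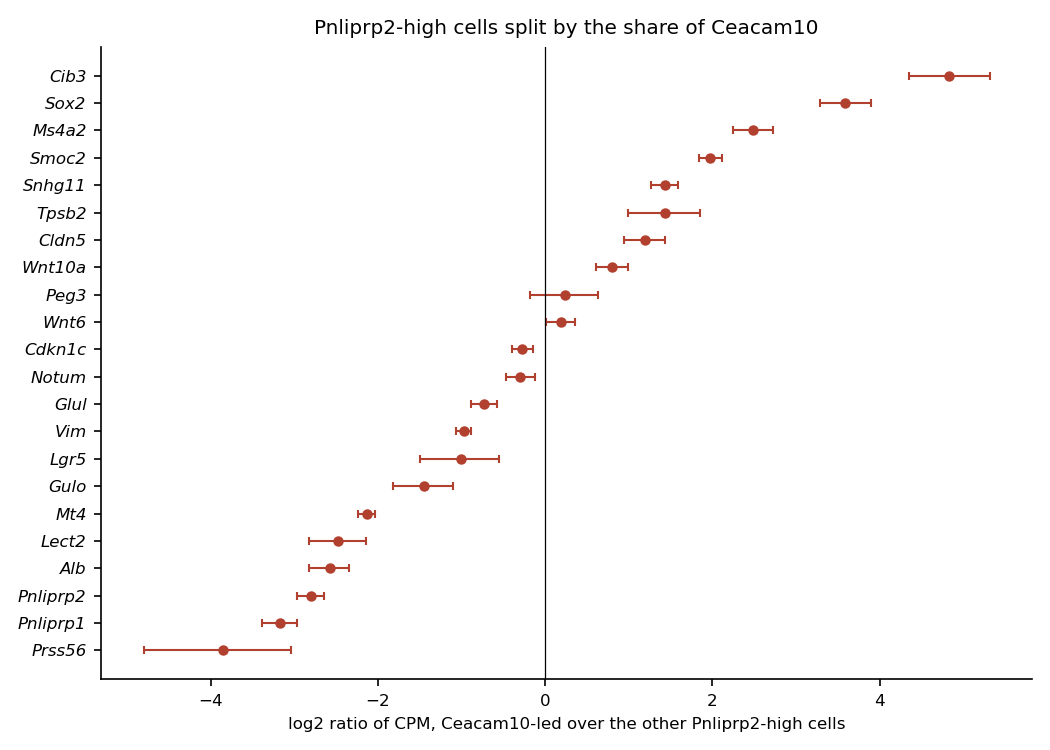
log2 ratio of CPM (95% intervals, counting error only) of 22 chosen genes between the 27 Pnliprp2-high cells led by Ceacam10 and the other 253. Of these, Cib3 and Sox2 stand highest, and Mt4, Lect2 and Alb are lower in the Ceacam10-led cells. The low lipase genes, Prss56 and Gulo follow from how the cells were split. Mt4 and Lect2 are correlated with Pnliprp2, and the part of the split in their lower levels was not tested.

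In the RSPO1-Fc culture, 14 of 2729 epithelial cells (0.513%, 0.281 to 0.859) reached the level of the 5 genes that the control limit required, with a highest value of 9461 CPM. Pnliprp2 stood at 12.7 CPM over RSPO1-Fc epithelial cells and at 499 CPM over control epithelial cells, Mt4 at 11.1 and 1379 CPM, and Lect2 at 48.9 and 141 CPM. Each condition is 1 library. Per the file header the control matrix came from software version 3.1.0, Cell Ranger 2.1.1 stands in the submitters' processing notes of both samples, and the matrices list 6794880 (control) and 737280 (RSPO1-Fc) barcodes. The labels' protocol names Reagent Kit v2 for both. Any difference in how the 2 matrices were made and RSPO1-Fc cannot be told apart.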

How the data were processed

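The 3′ single-cell libraries of 1 control and 1 RSPO1-Fc sample of organoids were read as the authors deposited them, as raw UMI counts for every gene and droplet barcode. Cell Ranger 2.1.1, Seurat 3.1.1 and mm10 are given in the submitters' processing notes, while the control file's header names version 3.1.0. Groups follow the treatment label. Barcodes counted as cells when their total reached a floor set from the largest totals of their library (9810 UMIs for control, 5960 for RSPO1-Fc) and mitochondrial UMIs were at most 20%. Scrublet (scanpy 1.11.5) scored doublets. Its own threshold marked 3 of 2251 control cells, doublets stayed in the main comparison, and an alternative left out the 41 highest scores. Shares, correlations and gene numbers use cells thinned to 9810 UMIs.

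Counts were summed over the cells of a group, scaled to CPM and compared as log2((Pnliprp2-high + 1)/(other + 1)). Folds use CPM without the pseudocount. A gene was measured at 20 CPM in either group. Intervals are exact Poisson for levels, conditional Clopper-Pearson for folds and Clopper-Pearson for shares. No p-value was computed. The steps were tested on simulated data. EdgeR 4.0.16 gave TMM factors for an alternative.

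The cells and the 54 gene lists were chosen with earlier results of these data known. Genes are named by a rule: the 5 choosing genes, the 15 highest and 10 lowest ratios among named genes that are neither mitochondrial nor ribosomal, at most 4 of each list, the 10 most like Pnliprp2 and a fixed set of stem, Wnt and lineage genes. Further genes named were chosen after their values were seen. The mast cell, metallothionein, imprinted and both liver lists, and Cyr61 and Ctgf, were added after values were seen. Positions come from GENCODE M21, and promoter windows from RefSeq. The fatty acid oxidation list is not reported here.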

Additional observations from a re-analysis of the deposited data

How the results depend on the processing

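Over 175 named genes and 27 alternatives, 3502 of 4725 log2 ratios shifted by less than the counting interval of the main value, 1220 by more, and 3 with a main value of at least 1 reversed. Signs changed in 30 values of 13 genes, the other 27 with a main value under 1. With the 15% chosen anew among cells at or below the median cell cycle share, Birc5 stood at 0.11 and Nusap1 at 0.032, and with both original groups limited to those cells Birc5 stood at 0.29. All 3 reversals thus came from alternatives that limit the cells by their cell cycle UMIs. The genes at least 2-fold higher and lower, 347 and 341, were 667 and 802 at 5 CPM, 2720 and 5141 without a filter on low genes, and 700 and 565 against cells with no UMI of the choosing genes. Higher genes numbered 215 with the choice made anew among low-cycle cells and 209 with both groups limited to them. Wnt targets at least 2-fold higher, 3 at first, numbered 10 against cells with no UMI and 0 with the choice made anew among low-cycle cells. Stem cell markers, 1 at first (Msi1, 2.01-fold), numbered 3 against cells with no UMI. They numbered 0 with the top 10% or 20%, at least 10 Epcam UMIs, Ceacam10, Prss56 or Gulo left out, mean ranks, the choice on one portion of the UMIs, mean CPM per cell, TMM, a pseudocount of 5 CPM, cells with 3 UMIs of other types left out (Cldn5 counted or not), and the choice made anew among low-cycle cells. The chosen cells, 280 at first, numbered 186 at the top 10%. Chosen anew as 15% of the cells left, they numbered 168 without cells with 3 UMIs of other types, 183 with Cldn5 not counted there, and 140 among low-cycle cells. TMM shifted log2 ratios by -0.06. With free RNA subtracted, Lgals4 moved to -9.04 (main -5.79), Ly6a to -7.26 (main -2.83) and Gpx2 to -4.34 (main -2.03). That subtraction took 14.9% of UMIs in Pnliprp2-high cells and 12.1% in others as free RNA. The scarcest gene allowed 0.489% and 0.617%, so these values may overstate the differences. At the allowed share, 349 genes were at least 2-fold higher and 346 lower. The alternatives added after the data were seen were both groups limited to low-cycle cells, Cldn5 not counted, and free RNA at the share the scarcest gene allows. No paired analysis was possible because the groups are cells of 1 library. The cause of these shifts was not tested.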

Other observations

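Of 6 measured MHC genes none differed 2-fold, with Cd74 at 43.0 CPM in Pnliprp2-high cells and 67.2 CPM in others. Of 5 measured interferon response genes, Usp18, which removes the ubiquitin-like protein ISG15, stood at 126 and 47.2 CPM (log2 ratio 1.40, and 0.73 in low-cycle cells) and no other differed 2-fold. Of 20 glycolysis and hypoxia genes, 15 were lower and 5 higher (median log2 ratio -0.32) and 2 at least 2-fold lower, with the oxygen sensor gene Egln3 at 4.74 and 26.4 CPM. Across all genes 4.95% were at least 2-fold lower and 5.04% higher.

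Among ERK feedback genes none of 9 differed 2-fold. The EGF family ligand Areg stood at 6.52 CPM in Pnliprp2-high cells and 38.2 CPM in others. The enterocyte peptidase gene Anpep stood at 29.6 and 3.6 CPM, and was seen in 25.4% of Pnliprp2-high cells, 3.91% of others and 36.6% of the macrophage background cells. The claudin gene Cldn2, a leaky junction protein, stood at 17.1 and 103 CPM.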
